A study of Monascus purpureus with 6 samples.

Results

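A set of 85 *M. purpureus* genes had at least 3 times as many reads in every winter library as in any YY-1 library. Of these, 75 had no other chosen gene directly beside them, and 10 formed 5 pairs. The genes were chosen by their counts in these same 6 libraries. Counts were divided by the library total and scaled to a common library size (CPM), and a gene was taken when its lowest winter CPM was at least 10 and at least 3 times its highest YY-1 CPM. Genes off the 8 large scaffolds C1 to C8, the 15 outermost genes at each scaffold end and the stretches C5.121 to C5.137 and C6.120 to C6.135, which hold pigment and citrinin genes, were left out beforehand. Of the 7491 genes listed, 7119 remained in scope, and the 85 were 1.19% of those. Another 12 genes passed both thresholds in the places left out and are not described here.

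The study sequenced RNA from mycelia of *M. purpureus* YY-1, a wild-type strain used for food colorants, and of winter, after 8 days of cultivation, with 3 biological replicates (a, b and c) of each strain. Winter is 1 transformant of YY-1 that carries a hygromycin phosphotransferase cassette from the plasmid pHPH at a random place, and it was picked because it makes little citrinin and, as was then found, more pigment. It is therefore a single clone, and a difference between the strains cannot be told apart from any other change that arose in that clone. The libraries held 9661178 to 10595943 counts in YY-1 and 15194009 to 16004947 in winter.

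*Monascus* pigments and citrinin are polyketides, which fungi build from acetyl-CoA and malonyl-CoA, and the methyl groups that polyketide synthases add come from S-adenosylmethionine. The nitrogen of amino acids and of the red pigments comes from ammonium or amino compounds, and fungi can make ammonium from nitrate with nitrate reductase and nitrite reductase. Fungal genes of 1 secondary metabolite often lie side by side, which is why the position of a raised gene next to other raised genes is of interest. Gene numbers such as C4.857 give the scaffold and the place in the order along it, and roles are those under which the study's Gene Ontology (GO) listing, held here in part, places a gene.

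All 85 genes passed the filter on low counts, which the required winter CPM guarantees, and all 85 were called higher in winter by edgeR's quasi-likelihood test at an adjusted p below 0.05, where 22.5% of all 7355 genes tested were called higher. The choice fixes this count, and nothing is read from it. The log2 fold change of winter over YY-1 was 2.70 at the median (6.51-fold), with quartiles of 5.30-fold and 9.57-fold, from 1.88 for C5.31 (3.67-fold) to 7.11 for C4.857 (138-fold). The median standard error (SE), worked back from the test statistic of this fit, was 0.21. More than 4-fold rises were seen in 79 of the genes, more than 8-fold in 33, more than 16-fold in 7 and more than 32-fold in 3. The median log2 fold change of all genes tested was -0.03.

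In YY-1 the 85 genes together took 0.819%, 0.792% and 0.862% of the counts in the 3 libraries. In winter they took 6.13%, 5.53% and 5.78%. The winter sum was uneven, since the 5 genes with the most winter reads held 38.6% of it and the top 10 held 57.3%. These 10 were C1.1193, C8.204, C3.131, C5.494, C2.904, C5.598, C2.857, C2.465, C1.823 and C3.393. CPM are not divided by gene length, so a share of reads is not a share of transcripts.

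**Figure D1:**
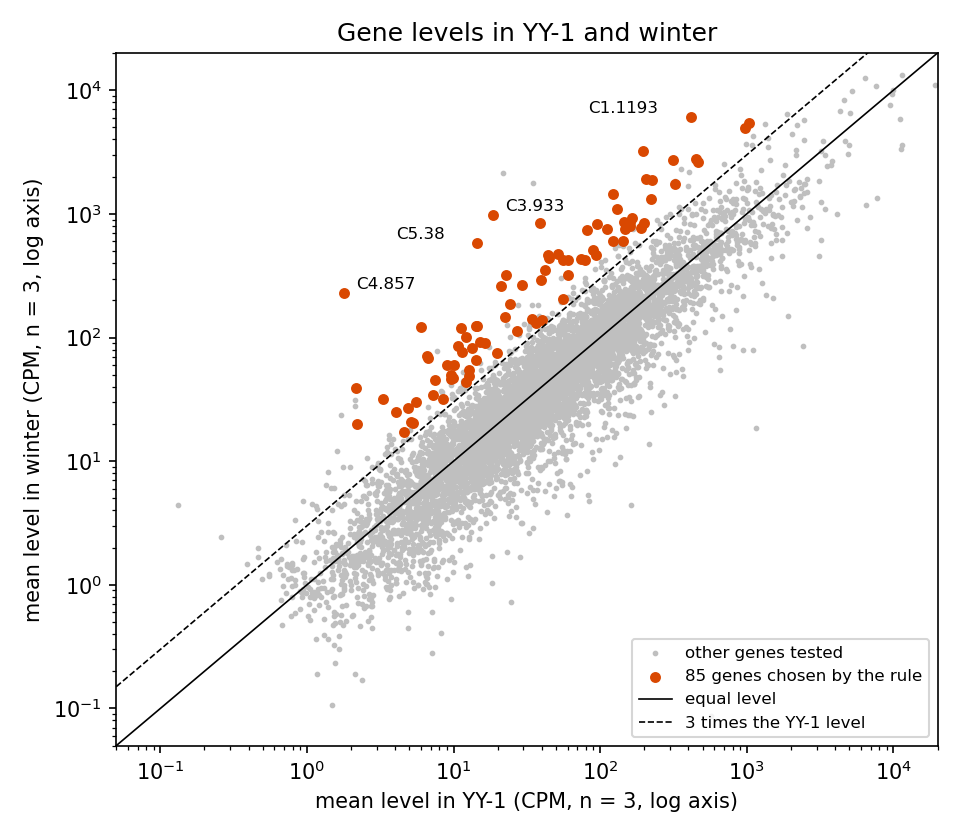
Mean level of each gene tested in YY-1 (x axis) and winter (y axis), both in CPM on log axes and with n = 3 libraries, with the 85 chosen genes in orange and the others in grey. The orange points spread over mean YY-1 levels from 1.80 to 1040 CPM and lie above the dashed line of 3 times the YY-1 level, and grey points beyond that line belong to genes in the places left out or to genes that missed a threshold in 1 or more libraries.

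None of the genes was silent in YY-1. The lowest count of any of them in a YY-1 library was 14 reads. The mean YY-1 level was 29.5 CPM at the median, with a range of 1.80 to 1040 CPM, and 46 of the genes lay below the median of the genes in scope (38.8 CPM). In winter the median rose to 263 CPM, with a range of 17.4 to 6030 CPM, and 75 lay above the median of the genes in scope (35.8 CPM). Genes of every basal class but the lowest were among them. There were 20 genes at 1 to 10 CPM in YY-1 (1.73% of the 1153 in scope), 42 at 10 to 100 CPM (1.02% of 4101) and 23 above 100 CPM (1.35% of 1709). None of the 156 genes in scope under 1 CPM in YY-1 was taken. A gene of 1 to 10 CPM could need a larger rise than 3-fold to reach 10 CPM in winter, so that the threshold itself shapes this class.

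The sizes of the rise are given by basal class as a description only, since the rule set a limit on both the fold and the winter level. The median rise was 6.20-fold (3.98 to 138) for the genes at 1 to 10 CPM, 7.33-fold (3.67 to 55.8) at 10 to 100 CPM and 6.10-fold (4.31 to 17.5) above 100 CPM. Spearman's rho between the log2 fold change and the mean YY-1 CPM was -0.05 across the 85 genes, which share the same 6 libraries and are not independent. Only the extremes differed by class, as the 3 rises over 32-fold came from genes below 100 CPM.

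The largest rise was that of C4.857, which the GO listing places under metal ion binding. Its level was 2.59, 1.42 and 1.38 CPM in the YY-1 libraries a, b and c (25, 15 and 14 reads) and 245, 197 and 248 CPM in the winter libraries, listed in this order as all later values are. The lowest winter library stood far above the highest YY-1 library, and the log2 fold change was 7.11 ± 0.28 (SE). The next gene on the scaffold, C4.858, went the other way, with 20.8, 19.8 and 17.5 CPM in YY-1 and 8.81, 6.58 and 7.41 CPM in winter. Its values did not overlap either, with a log2 fold change of -1.24 and an adjusted p of 0.000458 in edgeR's quasi-likelihood test.

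Next came C3.933, which is listed under RNA helicase activity and DNA repair. Helicases unwind nucleic acids with the energy of ATP. C3.933 had 22.9, 20.5 and 12.7 CPM in YY-1 and 880, 1112 and 926 CPM in winter, a log2 fold change of 5.80 ± 0.24 (SE). YY-1 replicate c was the lowest library and winter replicate b the highest.

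Acyl groups are moved by acetyltransferases, and 3 of the genes carried that term. C5.38 had 14.2, 17.0 and 12.4 CPM in YY-1 and 574, 604 and 572 CPM in winter, which gave a log2 fold change of 5.43 ± 0.19 (SE). Its winter libraries lay within a coefficient of variation (CV, the SD over the mean) of 3.05%. C1.1052 was near the bottom of the YY-1 range with 2.59, 1.32 and 2.57 CPM, against 33.4, 44.1 and 40.5 CPM in winter (log2 fold change 4.27). C4.829 changed less, from 8.28, 7.36 and 6.82 CPM to 43.3, 46.2 and 47.4 CPM (log2 fold change 2.70). What the 3 enzymes acetylate is not given by the listing.

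**Figure D2:**
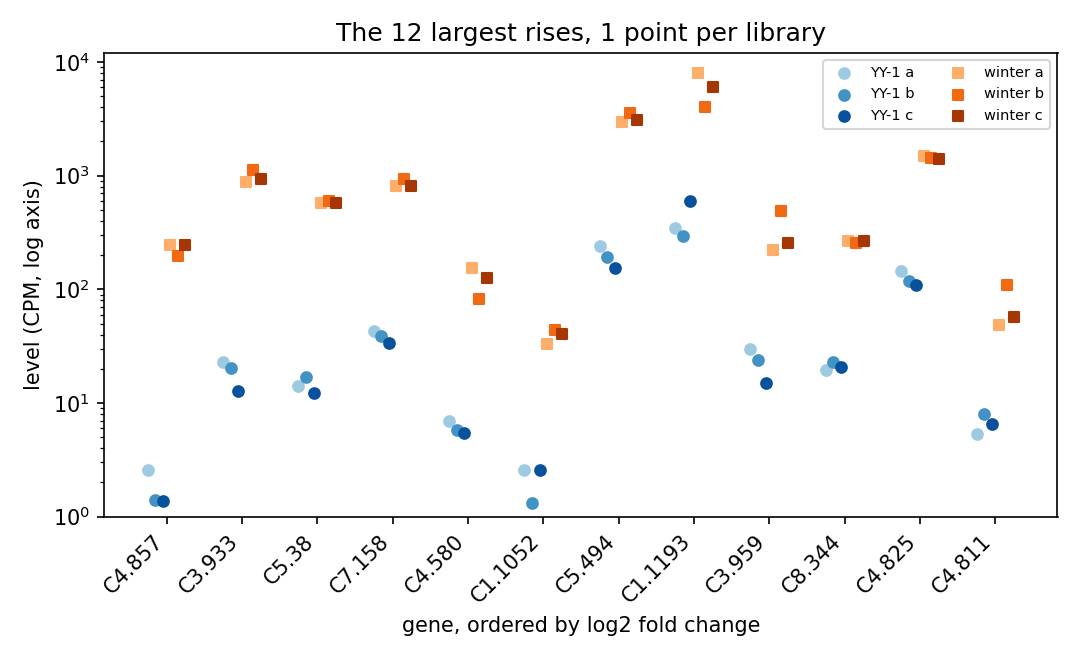
Level in CPM (log axis) of the 12 genes with the largest log2 fold change, with 1 point for each library, circles for YY-1 and squares for winter. The strains are separate in every gene, as the choice required, with the widest gap in C4.857 (at most 2.59 CPM in YY-1 and at least 197 CPM in winter), and C1.1193, C3.959, C4.580 and C4.811 show the widest spread among winter libraries.

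Others of the 12 largest rises had few or no terms. C7.158, with no term, went from 43.3, 38.9 and 33.9 CPM to 815, 927 and 805 CPM (log2 fold change 4.55 ± 0.18, SE). C8.344, whose terms name no specific activity, went from 19.5, 22.7 and 20.7 CPM to 265, 255 and 268 CPM (3.74 ± 0.17, SE) and was among the steadiest, with a CV of 2.71% in winter. C4.825 went from 144, 118 and 108 CPM to 1497, 1426 and 1415 CPM (3.65 ± 0.20, SE). In C7.158 winter replicate b was the highest winter library, and in C8.344 it was the lowest.

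C5.494, listed under ribosome assembly, the joining of ribosomal RNA and proteins into a ribosome, was high already in YY-1. It had 240, 193 and 154 CPM in YY-1 and 2967, 3558 and 3075 CPM in winter. Its log2 fold change of 4.13 ± 0.23 (SE) was the largest among the genes above 100 CPM in YY-1, at 17.5-fold. C1.1193, with no term, gathered the most winter reads of all 85, with 348, 297 and 603 CPM in YY-1 and 8001, 4046 and 6043 CPM in winter (log2 fold change 3.94 ± 0.41, SE). Both strains were uneven here, and winter replicate b lay below a and c.

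Nitrogen assimilation was represented by a pair of genes on different scaffolds. Nitrite reductase reduces nitrite to ammonium, the step after nitrate reductase, and C4.580 carried its term. C4.580 had 6.93, 5.76 and 5.43 CPM in YY-1 and 154, 82.3 and 126 CPM in winter, a log2 fold change of 4.43 ± 0.29 (SE). C2.325, the other gene under nitrate assimilation, had 5.59, 7.74 and 8.50 CPM in YY-1 and 27.6, 37.4 and 38.1 CPM in winter (log2 fold change 2.32).

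The neighbours of C4.580 on one side were raised as well. In *Aspergillus nidulans* the genes of nitrate reductase, nitrite reductase and a nitrate transporter adjoin. C4.579, listed under nitrate assimilation and molybdenum ion binding, the metal of nitrate reductase, had 9.73, 11.9 and 7.11 CPM in YY-1 and 49.5, 32.1 and 43.0 CPM in winter. It missed the threshold of 3 through the ratio of winter replicate b to YY-1 replicate b, but its strains did not overlap (log2 fold change 2.23, adjusted p = 4.73e-05 by edgeR). C4.578 had 14.9, 21.6 and 15.8 CPM in YY-1 and 117, 55.3 and 80.9 CPM in winter (log2 fold change 2.39, adjusted p = 0.000113 by edgeR). In all 3 of these adjoining genes winter replicate a was the highest and b the lowest winter library. On the other side, C4.581 had 6.83, 9.44 and 8.40 CPM in YY-1 and 8.25, 10.5 and 8.44 CPM in winter, with strains that overlapped and an adjusted p of 0.340 by edgeR.

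Terms of methionine, of the methyl cycle or of the biosynthesis of sulfur compounds were carried by 3 of the 10 genes with the most winter reads. These terms were put together after the values were seen, and no share over other genes is given. The genes carry other terms too, such as potassium ion transport for C2.857 and tetrapyrrole metabolism for C3.131. Cells use S-adenosylmethionine to methylate other molecules, and adenosylhomocysteinase splits the S-adenosylhomocysteine that remains. C2.857, listed under that activity, had 492, 530 and 367 CPM in YY-1 and 2639, 2678 and 2559 CPM in winter (log2 fold change 2.61 ± 0.20, SE). C3.131, listed under methionine biosynthesis and methyltransferase activity, had 994, 1325 and 592 CPM in YY-1 and 5176, 4838 and 4911 CPM in winter (2.48 ± 0.27, SE). C2.904, listed under the biosynthesis of sulfur compounds, coenzymes and purine nucleosides, had 460, 564 and 331 CPM in YY-1 and 2840, 2764 and 2752 CPM in winter (2.74 ± 0.22, SE).

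In each of these 3 genes YY-1 replicate b was the highest and c the lowest YY-1 library. Each place was common in CPM on library totals, where b was highest in 49.2% and c lowest in 58.7% of all genes tested. Such shares can change with the scaling. Their CVs in YY-1 were 18.4% for C2.857, 37.9% for C3.131 and 25.9% for C2.904. In winter they were 2.31%, 3.58% and 1.71%, and the highest winter library was b in C2.857 and a in C3.131 and C2.904. A further gene of methionine metabolism, C1.1172, fell just outside the set, with a lowest winter level of 2.97 times its highest YY-1 level.

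The terms of C1.823 and C4.735 named carbohydrate metabolism, and those of C8.204 and C6.142 a vitamin cofactor. Trehalose is a storage sugar of fungal spores and mycelium that also protects cells under stress, and C1.823, listed under its biosynthesis, had 217, 167 and 295 CPM in YY-1 and 2139, 1543 and 1908 CPM in winter (log2 fold change 3.12 ± 0.30, SE). Phosphoglycerate mutase acts in the lower part of glycolysis. C4.735, listed under that activity, had 221, 187 and 255 CPM in YY-1 and 1467, 1125 and 1389 CPM in winter (2.68 ± 0.24, SE). Thiamine pyrophosphate is the cofactor of enzymes such as pyruvate decarboxylase and transketolase. C8.204, listed under binding of thiamine pyrophosphate and magnesium, had 914, 775 and 1432 CPM in YY-1 and 6186, 4750 and 5395 CPM in winter (2.46 ± 0.32, SE). In these 3 genes YY-1 replicate c was the highest YY-1 library and winter replicate b the lowest winter library. C6.142, the other gene under thiamine pyrophosphate binding, differed from them in this, with 16.04, 16.1 and 13.3 CPM in YY-1 and 88.1, 94.1 and 94.3 CPM in winter (2.70 ± 0.14, SE). YY-1 replicate c was its lowest YY-1 library and winter replicate a its lowest winter library.

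Genes listed under binding of flavin adenine dinucleotide (FAD) or under isoprenoid and carotenoid biosynthesis made up a further group. FAD is a cofactor of oxidoreductases, and carotenoids are a class of pigment distinct from the polyketide pigments of *Monascus*. C6.655 had 38.1, 33.7 and 53.5 CPM in YY-1 and 267, 432 and 364 CPM in winter (log2 fold change 3.15 ± 0.26, SE). C7.650 had 12.2, 8.40 and 11.4 CPM in YY-1 and 76.5, 94.9 and 85.04 CPM in winter (3.09 ± 0.19, SE). C7.650 rose from a lower level and by nearly the same factor.

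C5.598 and C3.36 of the same group rested on uneven cultures. C5.598 had 225, 152 and 568 CPM in YY-1 and 3110, 2105 and 2973 CPM in winter, and its YY-1 CV of 70.4% and its SE of 0.49 around a log2 fold change of 3.17 were the largest among the 85. C3.36 had 4.04, 3.40 and 2.47 CPM in YY-1 and 57.0, 19.6 and 19.7 CPM in winter. Its winter CV of 67.1% was the largest of the set and came from winter replicate a, since replicates b and c were nearly equal.

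Among the genes of amino acid and cofactor metabolism were C7.524, listed under tryptophan synthase activity, and C5.31, listed under the biosynthesis of NAD. C7.524 had 7.04, 8.68 and 4.45 CPM in YY-1 and 33.5, 110 and 59.7 CPM in winter (log2 fold change 3.41 ± 0.37, SE), with winter replicate b far above a. C5.31 had 39.5, 41.8 and 39.6 CPM in YY-1 and 131, 143 and 143 CPM in winter. Its rise was the smallest of the set, and so was its SE (1.88 ± 0.14, SE). C4.315, listed under deaminase activity, had 109, 128 and 155 CPM in YY-1 and 933, 1419 and 930 CPM in winter (3.13 ± 0.24, SE).

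Other terms named GTPase activity, a ubiquitin ligase complex and DNA ligase activity. C2.281, listed under GTPase activity, had 118, 90.0 and 74.4 CPM in YY-1 and 475, 458 and 463 CPM in winter (log2 fold change 2.41). C7.149, listed under the anaphase-promoting complex, a ubiquitin ligase that marks proteins for breakdown in the cell cycle, had 13.7, 17.9 and 11.3 CPM in YY-1 and 116, 119 and 136.6 CPM in winter (3.22). C3.263, listed under DNA ligase activity, had 61.6, 47.1 and 57.9 CPM in YY-1 and 199, 210 and 200.2 CPM in winter (1.96). It is the 1 gene of the set that the study also drew among transcription factor genes.

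Across all terms, 48 of the 85 genes were listed and 37 were not. By words in the names of the terms, 10 fell under redox reactions, 9 under group transfer, 9 under amino acids and tRNA, 6 under hydrolysis, 5 under transport, 5 under lipids, 4 under carbohydrates and 4 under DNA and the nucleus, with some genes in several of these. The listing holds only genes that the study called higher, and only part of it was at hand, so these counts give roles and not a share of any function.

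The rule compares the lowest winter with the highest YY-1 library and so passes over genes with a wide spread, which bears on the CVs that follow. The median CV over the 85 genes was 18.2% in YY-1 and 10.8% in winter, where the medians over all genes tested were 16.8% and 13.2%. The most uneven in winter were C3.36 (67.1%), C7.524 (57.5%) and C3.959 (45.8%). In YY-1 they were C5.598 (70.4%), C3.820 (48.9%) and C7.609 (41.1%). C3.820, whose terms name no specific activity, had 7.76, 8.40 and 17.6 CPM in YY-1 and 92.9, 109 and 156 CPM in winter.

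The cultures that stood apart did so in both directions. Winter replicate b was more than 1.5 times the mean of a and c in 8 genes (C3.959, C3.960, C4.315, C4.406, C4.811, C4.832, C6.245 and C7.524). It was less than the mean divided by 1.5 in another 8, among them C1.1193, C3.36 and C4.580. YY-1 replicate c was more than 1.5 times the mean of a and b in 10 genes and less than the mean divided by 1.5 in 11. Across the 85 genes, Pearson's r between the deviation of winter replicate b and that of YY-1 replicate c was -0.30, and across 7348 genes of the table it was -0.09. Both are over genes that share the same libraries.

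**Figure D3:**
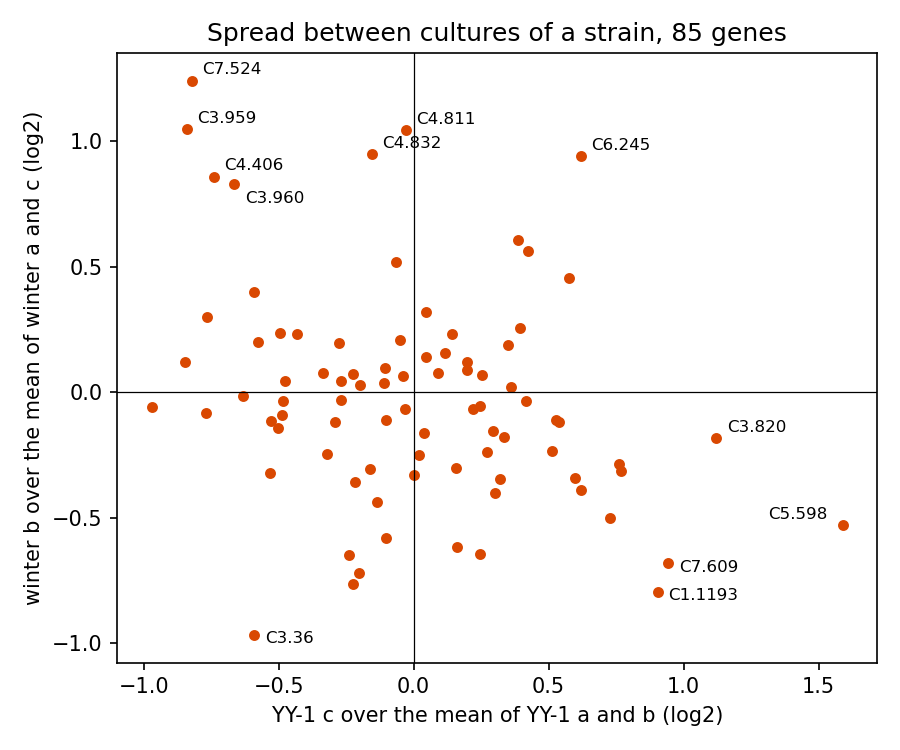
Each point is 1 of the 85 genes, placed by the log2 ratio of YY-1 replicate c to the mean of YY-1 a and b (x axis) and the log2 ratio of winter replicate b to the mean of winter a and c (y axis). C7.524, C3.959, C4.406 and C3.960 lie at the upper left (high in winter b, low in YY-1 c), and C1.1193, C7.609 and C5.598 at the lower right, with r = -0.30 over all points.

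One order of cultures recurred. In 13 of the 85 genes (15.3%) YY-1 replicate c was highest and b lowest while winter replicate a was highest and b lowest, an order that 248 of the 7355 genes tested (3.37%) had. Each of the other orders was held by at most 6 of the 85. The order was singled out after the values were seen. It is of CPM on library totals and can change with the scaling. The TMM factors of the edgeR fit were 1.10 for YY-1 b and 0.951 for c, and 0.918 for winter a and 1.04 for b. Shares of this order with TMM scaling are not given here. The 13 were C1.823, C1.1193, C3.460, C4.104, C4.152, C4.222, C4.376, C4.735, C5.546, C5.598, C6.424, C8.88 and C8.204. They hold C1.823, C4.735 and C8.204, given above under trehalose, phosphoglycerate mutase and thiamine pyrophosphate, but not C6.142. C6.424, also of the 13, is listed under carboxy-lyase activity and pyridoxal phosphate binding. It had 44.8, 39.4 and 49.9 CPM in YY-1 and 546, 319 and 452 CPM in winter. All 13 nonetheless kept the strains apart in every library, since that was a condition of the choice.

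All 8 scaffolds carried some of the genes. C4 held 19 (2.15% of its genes in scope), C3 held 17 (1.69%) and C8 held 9 (1.64%). C7 held 8 (1.19%), C5 held 9 (1.14%), C6 held 7 (0.854%), C2 held 9 (0.785%) and C1 held 7 (0.558%). Within 40 genes of a scaffold end lay 6 of the 85 (7.06%), beside 5.62% of the genes in scope. Within 60 genes lay 8 (9.41%), beside 10.1% of the genes in scope.

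Runs of chosen genes were short. Of the 85 genes, 75 had no other chosen gene directly beside them, and the other 10 formed 5 pairs. The chosen genes were 1.19% of the genes in scope. Whether 5 pairs are more than that share would give was not tested. No run was longer than 2. Allowing steps of up to 3 gene numbers joined C4.829 with C4.832 and C8.470 with C8.473, and steps of up to 4 added C4.825 to the former, which gave 15 genes in 7 groups. The reads are not known to mark strand, so that adjoining genes whose transcripts overlap could share counts.

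The pair with the largest rise was C3.959 and C3.960, of which neither carried a term. C3.959 had 29.7, 24.1 and 15.02 CPM in YY-1 and 220, 492 and 255 CPM in winter (log2 fold change 3.90 ± 0.31, SE). C3.960 had 50.5, 50.3 and 31.8 CPM in YY-1 and 365, 661 and 379 CPM in winter (3.49 ± 0.25, SE). In both, winter replicate b was the highest library and YY-1 replicate c the lowest. Both places were common in CPM on library totals, where b was the highest winter library in 55.5% and c the lowest YY-1 library in 58.7% of all genes tested. These shares, too, can change with the scaling. C3.958, the gene before the pair, had the same highest and lowest libraries at a lower level. It had 2.48, 1.89 and 0.889 CPM in YY-1 and 4.25, 15.01 and 7.41 CPM in winter (2.41, adjusted p = 0.00165 by edgeR). C3.957 and C3.961 on either side were not called.

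C2.269 and C2.270 formed the second pair. C2.269, listed under deaminase activity, had 11.4, 12.3 and 10.8 CPM in YY-1 and 83.9, 61.5 and 82.5 CPM in winter (log2 fold change 2.83). C2.270, listed under ribosomal RNA binding, had 31.4, 44.5 and 42.4 CPM in YY-1 and 345, 214 and 310 CPM in winter (2.98). Winter replicate b was the lowest winter library in both. C2.268, the gene before the pair, was called higher (0.81, adjusted p = 0.00569 by edgeR), and C2.267, C2.271 and C2.272 were not called.

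C4.103 and C4.104 went from 64.6, 56.8 and 58.7 CPM to 424, 468 and 386 CPM, and from 153, 139 and 184 CPM to 847, 728 and 803 CPM, in that order. In C4.103 winter replicate b was the highest winter library, and in C4.104 it was the lowest, so that the cultures of this pair did not vary together. Smaller rises adjoined on both sides, with log2 fold changes of 0.76 for C4.102 (adjusted p = 0.00219) and 0.50 for C4.105 (adjusted p = 0.0106) in edgeR's test. Past C4.105 they were 0.66 for C4.106, which was not called, 0.95 for C4.107, 0.92 for C4.108 and -1.09 for C4.109. On the other side they were -0.14 for C4.101 and -0.96 for C4.100.

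C3.16, listed under cofactor binding, and C3.17 had 57.1, 87.9 and 93.2 CPM and 26.1, 27.3 and 27.4 CPM in YY-1. In winter they had 427, 430 and 423 CPM and 113, 105 and 122 CPM. Their log2 fold changes were 2.51 and 2.17. On the side away from the scaffold end C3.18 (0.81) and C3.19 (1.53) were also called higher, and on the other side C3.14 was called lower (-0.86). The positive changes ran on past C3.19, with 1.61 for C3.20, 0.79 for C3.21, 0.68 for C3.22 and 0.83 for C3.23. Before C3.14 the changes were mixed, with -0.10 for C3.10, 1.28 for C3.11, -0.72 for C3.12 and -2.01 for C3.13. Calls of these farther genes are not given here.

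C1.409 and C1.410 had 161, 130 and 135.4 CPM and 10.7, 14.4 and 12.9 CPM in YY-1, and 565, 576 and 681 CPM and 45.2, 52.5 and 50.1 CPM in winter. Their log2 fold changes were 2.19 and 2.05. C1.408 before them rose by 2.03 (adjusted p = 0.000199 by edgeR) from 5.69, 3.02 and 5.04 CPM to 16.6, 15.1 and 20.9 CPM, and C1.411 after them fell by 1.10 (adjusted p = 0.00129). Of the 20 genes within 2 steps of the 5 pairs, 8 were called higher and 2 lower. Over all genes tested, the shares were 22.5% higher and 25.5% lower.

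**Figure D4:**
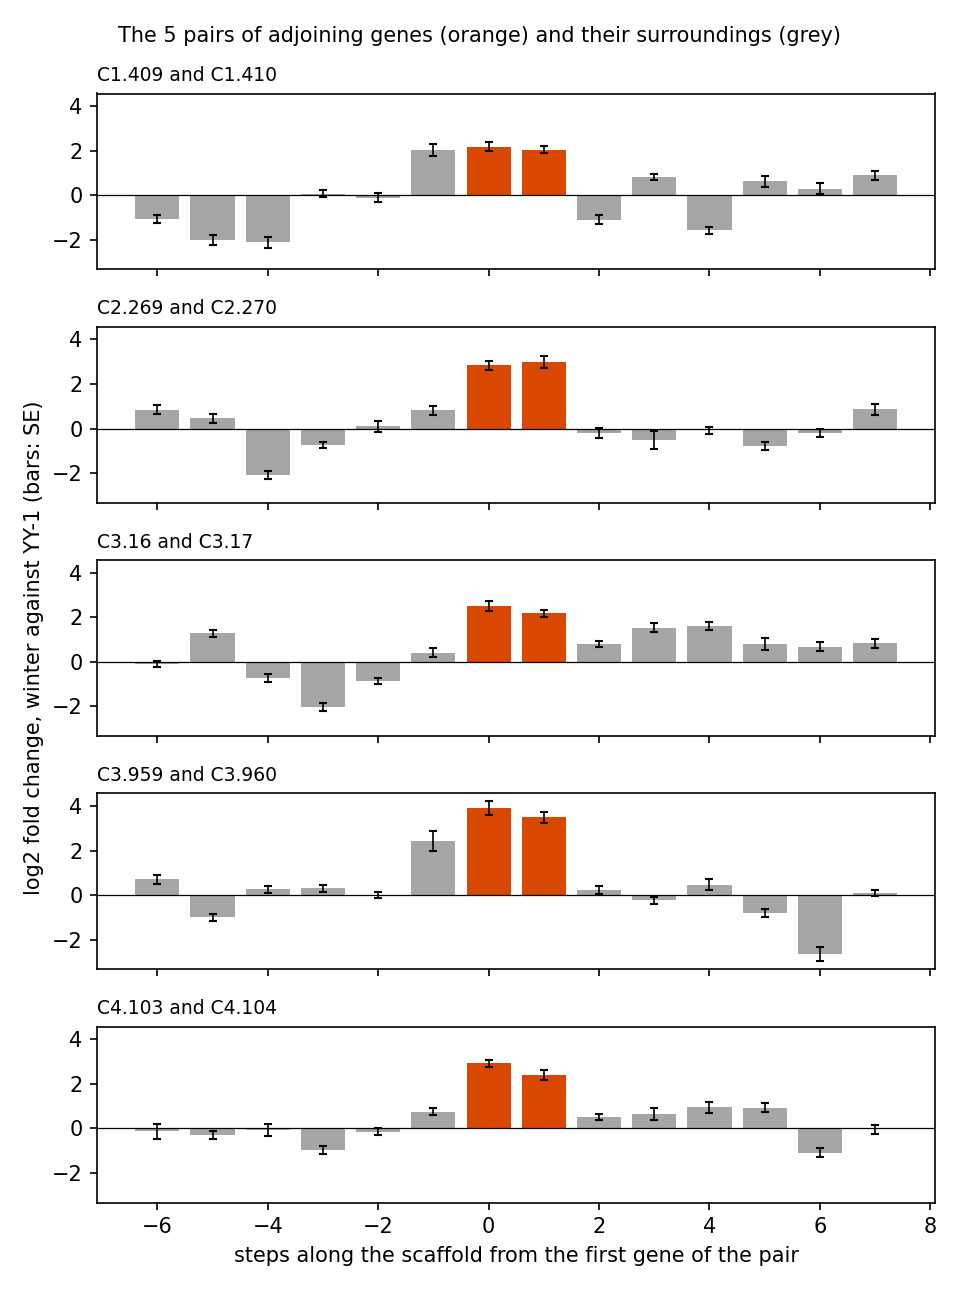
Log2 fold change of winter over YY-1 (bar height, with SE) of each gene within 6 steps of the 5 pairs of adjoining chosen genes, which are in orange, against the number of steps along the scaffold from the first gene of the pair. Grey genes called higher adjoin C1.409 (2.03), C2.269 (0.81), C3.959 (2.41), C3.17 (0.81), C4.103 (0.76) and C4.104 (0.50), and lowered genes lie within 2 steps of C1.410 (-1.10) and C3.16 (-0.86).

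Genes beside the 85 were described apart from them, since the rule did not choose these. Of the 160 direct neighbours, 153 were tested, and 54 (35.3%) were called higher and 23 (15.03%) lower in winter, while 76 were not called. Over all genes tested, 22.5% were called higher and 25.5% lower. The median log2 fold change of the neighbours was 0.31, beside -0.03 for all genes tested. Rises of more than 2-fold were called in 23 neighbours (15.03%), beside 8.92% of all genes tested.

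From the second gene on, the shares were nearer to those of all genes tested. Among genes in scope, 35.5% of 152 were called higher at 1 step from the nearest of the 85, 24.0% of 150 at 2 steps, 22.2% of 153 at 3 steps and 23.9% of 293 at 4 to 5 steps. At more than 20 steps the share was 20.6% of 4404. The shares called lower were 15.1% at 1 step and 26.7% at 2 steps. No test of these shares was made, and whether overlapping transcripts had a part in the share at 1 step was not tested.

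**Figure D5:**
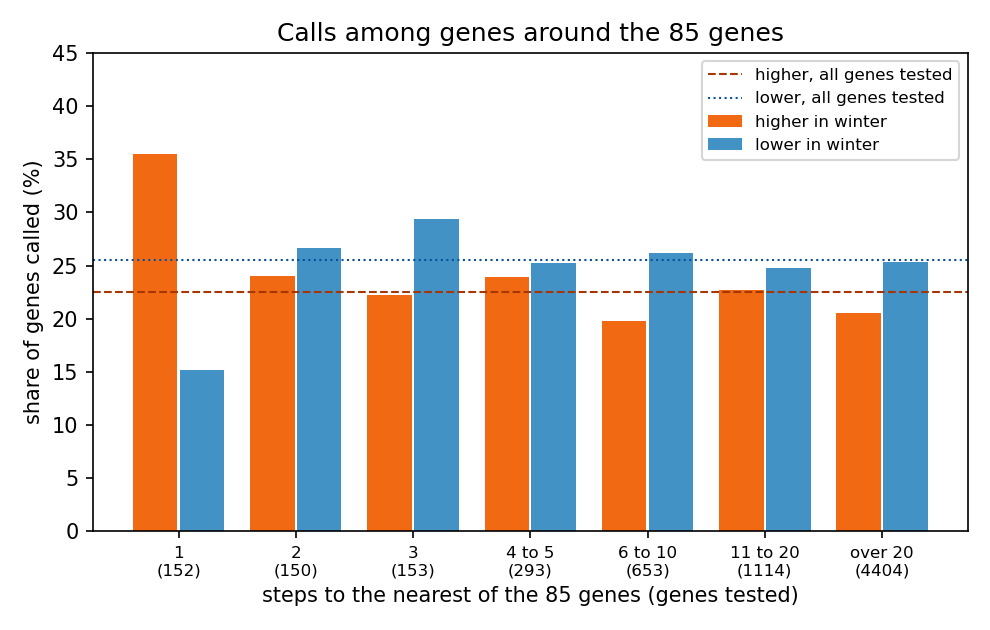
Share of genes in scope called higher (orange) or lower (blue) in winter by edgeR, in percent, by the number of steps to the nearest of the 85 genes, with the number of genes tested in brackets and the shares over all genes tested as dashed and dotted lines. At 1 step 35.5% were called higher and 15.1% lower, and from 2 steps on the shares called higher lie between 19.8% and 24.0%.

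Most of the 75 genes without a chosen neighbour had at most 1 raised gene beside them. Both neighbours were called higher for 10, 1 of them for 28 and neither for 37. Neighbours that were not tested, such as both of C1.84, are counted here as not called higher. The share called higher over all genes tested was 22.5%, and these counts were not tested against it. The largest rise among neighbours was that of C8.345 beside C8.344, from 0.104, 0.0944 and 0.198 CPM to 1.19, 7.96 and 3.99 CPM (log2 fold change 5.01, adjusted p = 0.000961 by edgeR), at levels below the required winter CPM of 10. Its winter libraries varied widely, whereas those of C8.344 hardly did. C6.654 beside C6.655 went from 30.1, 37.6 and 46.2 CPM to 108, 188 and 150 CPM (2.04), and C1.601 beside C1.602 from 1.04, 1.70 and 1.28 CPM to 5.94, 5.92 and 7.22 CPM (2.33). The strongest fall beside one of the 85 was that of C5.292, with a log2 fold change of -1.54.

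The threshold of 3 did not fall at a gap in the values. Just inside it lay C5.557, listed under catalase activity, with a lowest winter level (34.2 CPM) of 3.0001 times its highest YY-1 level (11.4 CPM), C4.832 (3.02), C4.406 (3.03), C7.402 (3.05) and C4.152 (3.06). Just outside it lay C4.421 (2.98), C1.1172 (2.97), C4.738 (2.97), C8.138 (2.96) and C1.221 (2.95). The ratios ran on across the threshold without a step.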

How the data were processed

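RNA-seq libraries of YY-1 and winter mycelia, 3 of each, were grouped by the sample labels. Before deposit, the authors dropped low-quality reads (NGS QC Toolkit), aligned the rest to predicted YY-1 transcripts with TopHat (at most 2 mismatches) and took HTSeq totals over unique exons. The labels name TopHat2 2.0.8b and HTSeq 0.5.4p2, and the study names other versions. They deposited raw counts per gene for 7491 rows, 2 of which join a pair of gene models. Reads that fit near-identical genes are not counted on unique exons. The strand and layout of the reads and the gene lengths are not given in the sources used here, and the labels and the study name different RNA extraction reagents.

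CPM were counts divided by the library total. The strains were compared on the counts with edgeR 4.0.16 (R 4.3.3): TMM scaling, filterByExpr (7355 genes kept), a quasi-likelihood test of the strain effect without covariates, and Benjamini-Hochberg adjustment over all genes kept, with a threshold of 0.05. The study used DESeq, which was not run. Fold changes are from this fit and levels are CPM on library totals. edgeR gives no SE for this test. Each SE here is the absolute log2 fold change divided by the square root of the quasi-likelihood F statistic. With library totals in edgeR the median log2 fold change of all genes moved from -0.03 to -0.13. The test was tried on simulated counts. With 3 libraries a strain, the smallest two-sided p of an exact permutation test is 0.1, so none is given.

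The members, gene lists and tests were chosen with earlier results of these data known. Named genes were the 12 largest rises, the 10 with the most winter reads, the 5 lowest and 5 highest in YY-1, the 5 on each side of the threshold, the 3 with the highest CV in each strain, any in runs of 3 or more, any the study names and up to 4 per group of GO terms. The genes of the 5 pairs, neighbours, C2.325, C6.142, C6.245, C6.424 and the 13 genes of one order of cultures were named after their values were seen. Alternatives were RLE scaling, library totals, no filter, DESeq2 1.42.0, a replicate block, each library left out, and other thresholds of the rule. Python 3.11.15 with pandas 2.3.3, numpy 2.4.6, scipy 1.17.1 and matplotlib 3.10.9 was used.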

Additional observations from a re-analysis of the deposited data

How the results depend on the processing

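Membership depended on the threshold. The rule gave 194 genes at a fold of 2, 51 at 4 and 32 at 5, beside 85 at 3, with 26, 4 and 2 genes in runs beside 10. At a fold of 2 the longest run held 3 genes (C1.408 to C1.410 and C4.578 to C4.580). A lowest winter CPM of 5 or 20 gave 87 or 79 genes, and TMM-scaled CPM gave 89, of which 77 were among the 85. With each library left out, the rule gave 88 genes (without winter replicate c) to 104 (without winter replicate b). These hold the 85 by construction, since leaving out a library only relaxes the rule.

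All 85 genes, chosen on the same contrast, were called higher under each alternative fit, with medians of the log2 fold change from 2.61 (library totals) to 2.84 (without YY-1 replicate c). Leaving out a library moved this median between 2.67 and 2.84. Direct neighbours called higher numbered 54 in the main fit, 44 with library totals, 62 with DESeq2 and 46 to 55 with a library left out. The shares called higher over all genes in the alternative fits are not given here. These counts therefore do not show whether the neighbours stayed above that share. In the main fit, 90 of 304 (29.6%) were called when the next gene on each side was added, beside 22.5% of all genes tested. The 41 named genes that are among the 85 kept their direction and their side of the threshold in all 11 alternative fits. They were chosen on this contrast, so nothing is read from this.

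The letters a, b and c were not taken to pair the cultures, since not every correlation was over 0.1. Deviations from the strain means correlated at 0.097 for a, 0.28 for b and 0.10 for c. YY-1 replicates b and c correlated best with the winter replicate of their own letter, and YY-1 replicate a with winter replicate c (0.18). A replicate block left 85 called, with a median of 2.71 and 61 neighbours. Depth limits low genes most, since C4.857 rested on 14 to 25 reads in YY-1.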
